A study of Mus musculus with 4 samples.

Results

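Kainate and AMPA receptors are ion channels opened by glutamate. The gene lists used here hold the 5 kainate receptor subunit genes, *Grik1* to *Grik5*, and the 4 AMPA receptor subunit genes, *Gria1* to *Gria4*, which are 9 of the 56748 genes in the deposited table. They were taken by gene symbol as whole families, but the families were chosen from the difference of *Grik1* between mutant and control lenses in these same libraries. For that reason the values of *Grik1* are given as a description with no p, and the tests concern the other subunits.

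The libraries came from whole lenses of mice aged 10 to 12 days. The mutant group, Fsp1-cre;Pdgfrb+/D849V, carries a cre transgene driven by the *Fsp1* (*S100a4*) promoter and 1 conditional *Pdgfrb* allele encoding the hyperactive D849V receptor from the endogenous locus. The control group is labelled Fsp1-cre;Pdgfrb+/+, whereas the methods of the study describe control pools that also held mice without cre and mice with the D849V allele but without cre. Each group had 2 libraries, each a pool of lenses from several mice on an FVB/N background into which a cre-dependent tdTomato reporter had been crossed. Both the cre transgene and the *Pdgfrb* allele can act in cells outside the lens. The p-values therefore measure the spread between 2 pools per group and not that between single mice.

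Each receptor of these families is built from 4 subunits around a central pore. The products of *Grik1*, *Grik2* and *Grik3* can form kainate channels alone, whereas those of *Grik4* and *Grik5* bind kainate tightly but need one of the former to make a working channel. AMPA receptors combine the products of *Gria1* to *Gria4*, and the edited product of *Gria2* makes the channel nearly impermeable to calcium. These receptors are best known from excitatory synapses of the brain and retina, while the lens itself is made of an epithelial sheet and fibre cells and holds no nerve cells.

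The end of the membrane segment that gates the channel is closely alike in both families. Its coding bases are shown to let a reader see where the 9 genes differ in it. The stretch was chosen because it encodes the same amino acids in all 9 genes, so its likeness follows from the choice. The stretch is 27 bases long, lies within 1 coding exon in each gene, and is written 5′ to 3′ from the GENCODE M21 transcripts (GRCm38). Capitals mark bases that differ from *Grik1*.

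Grik1: tcctacactgccaacctggctgccttc
Grik2: tcGtaTacCgcTaacctAgcCgccttT
Grik3: tcctacacGgccaacctggctgccttc
Grik4: tcctacacGgccaacctggcAgccttc
Grik5: tcctacacGgccaacctggctgccttc
Gria1: tcAtacacAgccaacctggctgccttc
Gria2: tcctacacGgcTaacTtAgctgccttc
Gria3: tcctacactgcAaacctTgctgcTttc
Gria4: tcctacactgcTaaTctggctgcAttc

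In *Grik1* this stretch lies at chr16:87936009-87936035 on the minus strand, in exon 13 of 17. That of *Grik5* lies at chr7:25015919-25015945 on the minus strand and that of *Grik3* at chr4:125694042-125694068 on the plus strand, and each differed from *Grik1* at 1 of the 27 bases. *Grik2* differed at 7 bases, the most of the 9 genes, and the 4 AMPA genes at 2 to 4 bases. Words of 31 bases over whole transcripts are another measure, not comparable with the counts above, because any differing base breaks every word that covers it. Of 6768 words of 31 bases in the *Grik1* transcripts, 5 also occur in another subunit gene and 61 (0.901%) in any other gene. Across the 9 genes between 0.282% and 1.49% of the words occur in another gene, so that reads of one subunit could seldom have been taken for those of another.

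Levels are given as FPKM, fragment counts scaled to gene length and to a denominator for each library. That denominator was 0.944 to 1.05 times the reads of the library. FPKM are per length, so genes were compared by them, but the length is the deposited gene length. It need not be that of the transcript present in the lens. For *Grik1* it is 6721 bases, whereas the longest coding transcript with the stretch above has 3655. These lengths are 5168 and 3763 for *Grik5*, and 8973 in both cases for *Grik3*. Levels and ratios between genes depend on this choice, whereas differences between groups within a gene do not use it. The whole reads behind each value could be recovered, since 100% of the nonzero FPKM, scaled by gene length, fell on whole multiples of the same step to within 0.01 of a read. The libraries held between 18561682 and 18878768 recovered reads, of which 58.6% to 62.9% fell on crystallin genes, the structural proteins of the lens. The lens identity was plain from *Cryaa*, the alpha A crystallin, at 66165 to 74239 FPKM, and from *Foxe3*, a transcription factor of the lens epithelium, at 103 to 122 FPKM. *Lim2*, which encodes an abundant fibre membrane protein, is listed at 0 in every library, so a value of 0 in this table does not show that a transcript was absent. *Pdgfrb* itself lay between 1.79 and 2.36 FPKM in all libraries, and these values do not tell the D849V transcript from the wild-type one.

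Among the subunits, *Grik5* was by far the most abundant. It had 3.49 and 3.44 FPKM in mutant replicates 1 and 2 and 3.03 and 2.81 FPKM in control replicates 1 and 2. Its mean of 3.19 ± 0.329 FPKM (SD, n = 4) was higher than that of 82.6% of the protein-coding genes and 4.26 times that of the next subunit. *Grik1* came second with a mean of 0.750 ± 0.426 FPKM and *Grik3* next with 0.372 ± 0.0731 FPKM. These neighbours were not apart over all libraries, since the *Grik1* values of the control libraries lay within the range of *Grik3*.

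AMPA receptor genes were scarce. *Gria1* followed with 0.128 ± 0.0454 FPKM, below every value of *Grik3*. *Gria3* had 0.0339 ± 0.0222 FPKM and *Grik4* 0.0244 ± 0.0197 FPKM, and their ranges overlapped. *Grik2*, *Gria2* and *Gria4* had means between 0.00405 and 0.00496 FPKM, which rest on 2 to 5 reads over all 4 libraries, so no order can be given among them. The 5 kainate genes together made up at least 3.64 FPKM per library and the 4 AMPA genes 0.0766 to 0.259 FPKM. Kainate subunit RNA thus exceeded AMPA subunit RNA by 19.3 to 49.3 times. The AMPA sums rest on 24 and 37 reads in mutant replicates 1 and 2 and on 10 and 19 in control replicates 1 and 2. The ratio is therefore imprecise, and its highest value comes from the library with 10 AMPA reads.

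**Figure D1:**
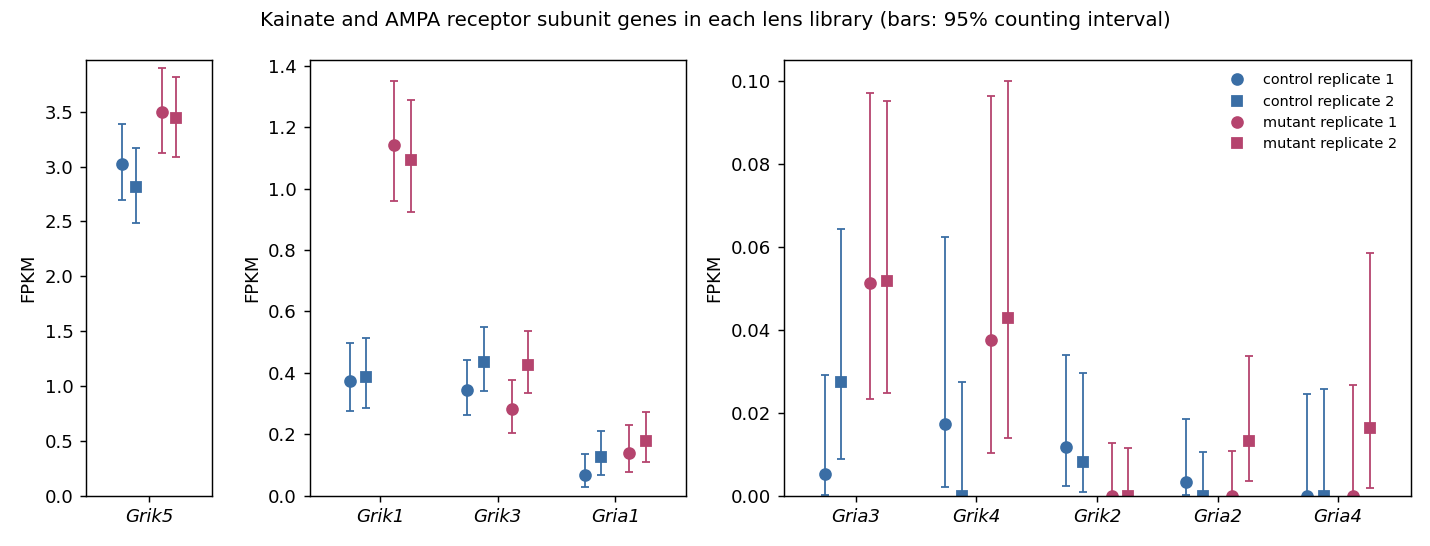
FPKM of each subunit gene in each library, with control libraries in blue and mutant libraries in red, on linear axes that differ between the 3 panels. Bars are exact 95% Poisson intervals of the reads, with 3 reads as the upper limit where none was found, and they cover counting error only. The mutant points of Grik1 (1.09 and 1.14 FPKM) lie clear of its control points (0.375 and 0.387 FPKM), while those of Grik3 lie among its control points.

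*Grik1* (ENSMUSG00000022935) encodes the kainate subunit GluK1 and spans 394 kb of chromosome 16. Its reads numbered 137 and 144 in mutant replicates 1 and 2 and 49 and 48 in control replicates 1 and 2. In FPKM these were 1.14 and 1.09 in mutant and 0.375 and 0.387 in control lenses. Both mutant libraries lay far above both control libraries, and within each group the 2 libraries differed by less than the counting error of their reads. The exact 95% Poisson intervals of the mutant libraries ran from 0.923 to 1.35 FPKM and those of the control libraries from 0.277 to 0.514 FPKM. Group means were 1.12 ± 0.0347 (SD, n = 2) and 0.381 ± 0.00884 FPKM, a ratio of 2.94. On the log2(FPKM + 0.1) scale used for the tests, which understates the change of low genes, the mutant mean was higher by 1.34 (standard error 0.19). Since this difference led to the choice of the families, nothing is inferred from it here.

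*Grik5*, the most abundant subunit, was covered by 322 and 348 reads in mutant lenses and by 304 and 268 reads in control lenses, or 3.49 and 3.44 against 3.03 and 2.81 FPKM. The FPKM means were 3.47 ± 0.0393 in mutant and 2.92 ± 0.150 in control lenses (SD, n = 2), a ratio of 1.19. Both mutant values again lay above both control values, but by much less than in *Grik1*. The log2 difference was 0.24 (standard error 0.12, 95% interval -0.053 to 0.54) and did not pass the test (limma adjusted p = 0.811, unadjusted p = 0.0895).

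*Grik3*, which like *Grik1* encodes a subunit able to form channels alone, was covered by 45 and 75 mutant reads and by 60 and 72 control reads. Its FPKM were 0.281 and 0.427 in mutant and 0.344 and 0.435 in control lenses. The groups overlapped, and the 2 mutant libraries lay further apart than the group means. Its log2 difference was -0.12 (standard error 0.31, 95% interval -0.90 to 0.66, limma adjusted p = 0.948).

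The remaining kainate genes were near the limit of detection. *Grik4*, whose product also needs a partner subunit, had 4 and 5 mutant reads against 2 and 0 control reads. *Grik2*, encoding GluK2, the main kainate subunit of many brain regions, had 0 reads in both mutant libraries and 3 and 2 reads in the control libraries. In both genes every count stayed within a few reads of the limit of 3 reads that a count of 0 allows, which is 0.0257 to 0.0282 FPKM for *Grik4* and 0.0116 to 0.0127 FPKM for *Grik2*. Neither reached the mean of 0.1 FPKM required for the main test. Without that filter, the log2 differences were 0.37 for *Grik4* and -0.14 for *Grik2*, and neither was called (limma adjusted p = 0.823 and 0.873).

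The makeup of the kainate subunit RNA moved with *Grik1*. *Grik1* accounted for 23.1% and 21.9% of the summed kainate FPKM in mutant replicates 1 and 2 and for 9.94% and 10.6% in control replicates 1 and 2. *Grik5* accounted for 70.5% and 68.7% in mutant and 80.2% and 77.2% in control lenses. Without *Grik1*, the sum was 3.81 and 3.91 FPKM in mutant and 3.40 and 3.26 FPKM in control lenses, most of it *Grik5*. In control lenses *Grik1* and *Grik3* were nearly level in FPKM, with ratios of *Grik1* to *Grik3* of 1.09 and 0.890. In mutant lenses these ratios were 4.06 and 2.56. *Grik5* exceeded *Grik1* by 8.07 and 7.26 times in control and by 3.06 and 3.14 times in mutant lenses. As these shares contain *Grik1*, they are a description as well. The shares and ratios also depend on the gene lengths behind the FPKM.

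**Figure D2:**
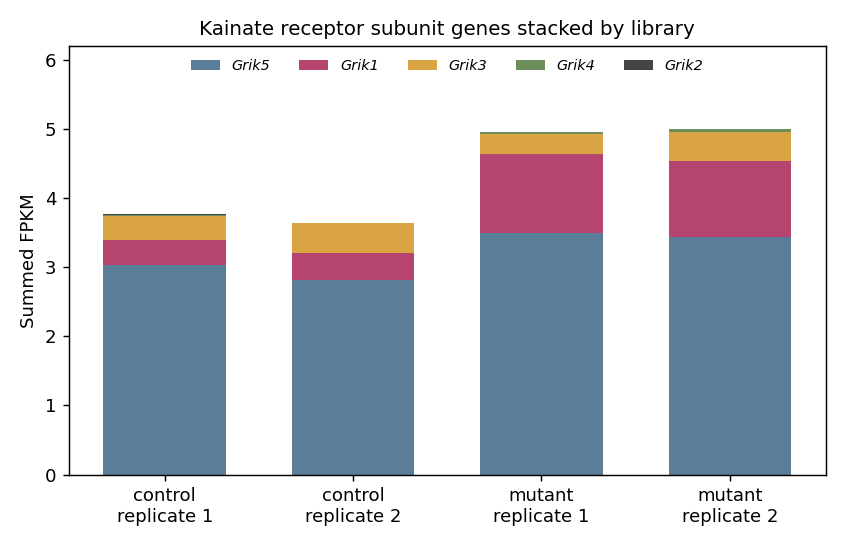
FPKM of the 5 kainate receptor subunit genes stacked for each of the 4 libraries, on a linear axis from 0. The Grik1 part makes up 9.94% and 10.6% of the bars of the control libraries and 23.1% and 21.9% of those of the mutant libraries, and Grik5 forms most of every bar.

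Of the AMPA receptor genes, only *Gria1*, encoding GluA1, reached the level required for testing, with a mean of 0.0969 ± 0.0407 FPKM in control lenses that was itself below that level. Mutant lenses gave 15 and 21 reads (0.139 and 0.177 FPKM) and control lenses 8 and 14 reads (0.0681 and 0.126 FPKM), so that the lowest mutant library lay 1 read above the highest control library. The log2 difference was 0.40 (standard error 0.50, 95% interval -0.87 to 1.68, limma adjusted p = 0.872). The interval was the widest of the tested subunits and held differences of either sign.

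*Gria3*, encoding GluA3, had 9 and 10 mutant reads against 1 and 5 control reads. It lies on the X chromosome, and *Xist*, the RNA of the inactive X, was lower in mutant replicate 1 and control replicate 2 (7.62 and 5.56 FPKM) than in mutant replicate 2 and control replicate 1 (13.1 and 15.6 FPKM), while *Gria3* had 0.0512 and 0.0518 FPKM in mutant replicates 1 and 2 and 0.00522 and 0.0275 FPKM in control replicates 1 and 2. The part of the sex composition of the pools in these values was not tested. *Gria2*, encoding the subunit that sets calcium permeability, had 0 and 4 mutant reads against 1 and 0 control reads. *Gria4*, encoding GluA4, was listed at 0 in 3 libraries and had 2 reads in mutant replicate 2. These 3 genes did not reach the mean of 0.1 FPKM required for the main test. In a fit without that filter none was called, with log2 differences of 0.39 for *Gria3*, 0.066 for *Gria2* and 0.11 for *Gria4* (limma adjusted p = 0.823 to 0.938). Both mutant libraries lay above both control libraries in *Gria3*, whereas the groups overlapped in *Gria2* and *Gria4*.

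In all, 4 of the 9 subunit genes were tested among 15997 genes. Apart from *Grik1*, none of the 3 tested subunits passed limma's test at an adjusted p of 0.05, none reached an unadjusted p of 0.05, and voom on the recovered reads called none of the 3. Over all genes tested, 0.0375% had an adjusted p and 6.31% an unadjusted p under 0.05. Both mutant libraries lay above both control libraries in 2 of these 3 subunits, *Grik5* and *Gria1*, and in 18.2% of all genes tested. With 3 genes this count cannot be read as a property of the families, and *Gria1* reached the tested level through its mutant libraries.

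The genes around the subunits were looked at for reads that could be shared. No gene of the deposited table overlaps the span of *Grik1* or *Grik5*. The nearest protein-coding genes on either side of *Grik1* with at least 0.1 FPKM were *Bach1*, a transcription factor gene 163 kb away, and *Cldn8*, a claudin gene 271 kb away. *Bach1* had 72, 64, 71 and 71 reads in mutant replicates 1 and 2 and control replicates 1 and 2, a log2 difference of -0.038 (standard error 0.21, limma adjusted p = 0.981). *Cldn8* had 2 and 17 mutant and 6 and 2 control reads, a difference that did not pass the test (limma adjusted p = 0.892). The difference of *Grik1* was thus not seen in *Bach1*, and *Cldn8* had too few reads to tell. Of 14 genes that overlap another subunit gene, 12 had no reads, and *Ftl2-ps* and *Mir692-2*, both inside *Grik3* on its own strand, had 14 and 11 reads over all libraries.

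The 5 genes whose pattern over the 4 libraries was nearest to *Grik1* were found among 12999 genes with at least 40 reads, by the Euclidean distance between log2(FPKM + 0.1) values centred on each gene's mean. They were *Rpl17-ps8*, a ribosomal protein pseudogene whose reads may belong to its parent gene (distance 0.205), *Mab21l2*, a gene needed for eye development (0.246), *Stac*, which encodes a partner of calcium channels (0.263), *Gbp4*, an interferon-induced GTPase gene (0.291), and *Pold4*, encoding a small subunit of DNA polymerase delta (0.296). *Mab21l2* was covered by 51 and 69 mutant against 22 and 20 control reads, and *Stac* by 20 and 28 against 6 and 7. *Gbp4* had 18 and 25 mutant against 1 and 3 control reads, or 0.135 and 0.170 against 0.00686 and 0.0217 FPKM. Its control values lay below the added 0.1, so its distance understates how far its fold change exceeds that of *Grik1*. All 5 had both mutant libraries above both control libraries, which the likeness to *Grik1* requires, so this is a description of 4 libraries.

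**Figure D3:**
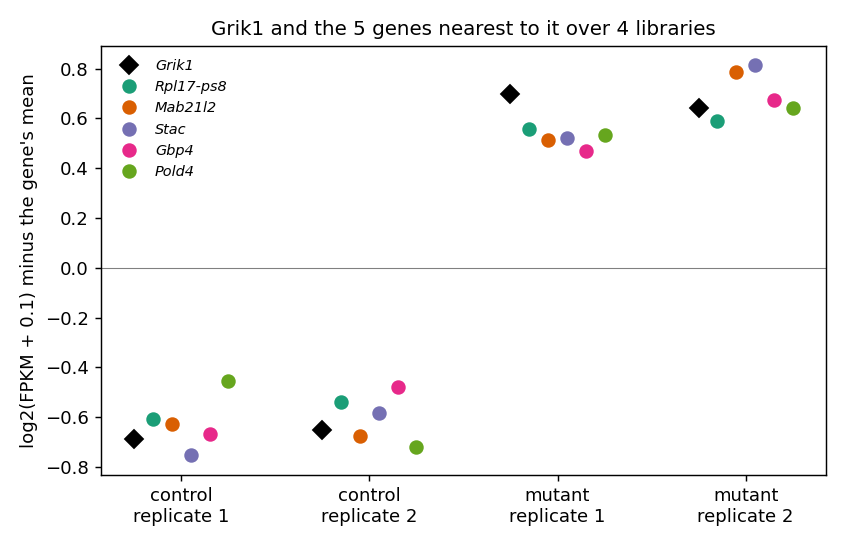
Centred log2(FPKM + 0.1) of Grik1 (black diamonds) and of the 5 genes nearest to it, with points side by side within each of the 4 libraries. All 6 genes lie below their own mean in both control libraries and above it in both mutant libraries, as the choice by likeness requires.

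Beside the 2 families stand the other glutamate receptors (9 NMDA and delta subunit genes and 8 metabotropic receptor genes) and the genes that assemble, anchor and supply glutamate receptors. Of these 59 genes in 6 lists, 27 were tested, none passed limma's test or voom at an adjusted p of 0.05, and 3 had an unadjusted p under 0.05, 1 higher and 2 lower in mutant lenses, where 6.31% of all genes tested had one. Of the 27 genes, 19 were lower and 8 higher, with a median log2 difference of -0.18 beside 0.0041 over all genes tested. Both mutant libraries lay below both control libraries in 12 of them (44.4%), as in 18.3% of all genes tested, and above both in 1 (3.70%), as in 18.2% of all genes tested. With libraries scaled to equal total recovered reads, the median was -0.21, beside -0.024 over all genes tested. With equal recovered reads outside crystallins it was -0.19, beside -0.0075. Such scalings move all genes nearly alike, so they are no separate test of the difference.

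Kainate receptors travel with the auxiliary proteins Neto1 and Neto2. *Neto2* had 0.686 and 0.525 FPKM in mutant and 0.545 and 0.628 FPKM in control lenses, groups that overlapped (log2 difference 0.032, standard error 0.23, limma adjusted p = 0.986). *Neto1* had 1 read in all.

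AMPA receptors depend on TARPs, cornichons and other helpers, of which 8 of 17 were tested, 2 of them higher and 6 lower. *Cacng4*, encoding the TARP gamma-4, had the smallest p of this list and the same direction as *Grik1*. Its 28 and 32 mutant reads stood against 13 and 15 control reads, or 0.448 ± 0.0126 against 0.207 ± 0.0287 FPKM (SD, n = 2). Its log2 difference was 0.84 (standard error 0.29, unadjusted p = 0.0324, limma adjusted p = 0.769), which did not pass the test. The more abundant *Cacng7*, *Olfm1* and *Cpt1c* had 5.59, 4.28 and 2.60 FPKM on average and log2 differences of 0.016, -0.074 and -0.041. *Abhd6*, a lipid hydrolase that limits AMPA receptor delivery, had 0.565 against 0.772 FPKM (limma adjusted p = 0.811), and *Cacng2*, *Cacng3*, *Cacng5* and *Shisa6* were listed at 0 in every library.

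Receptor genes outside both families were also present, and 2 of them were more abundant than any kainate subunit. *Grid1*, a delta receptor subunit gene, had 4.70 and 4.51 FPKM in mutant and 5.13 and 5.59 FPKM in control lenses, more than *Grik5* in every library. Its log2 difference was -0.21 (standard error 0.11, limma adjusted p = 0.811). *Grm4*, a metabotropic receptor that couples to inhibitory G proteins, was covered by 466 and 460 mutant against 669 and 636 control reads, or 4.15 ± 0.313 against 5.76 ± 0.0116 FPKM. It had the smallest p of the 27 genes (log2 difference -0.47, standard error 0.11, unadjusted p = 0.0083) and did not pass the adjusted test (limma adjusted p = 0.643). *Grm8* and *Grm7* had 0.148 and 0.105 FPKM on average with overlapping groups. Of the NMDA receptor genes only *Grin3b* was tested, on 16 and 3 mutant against 11 and 13 control reads (limma adjusted p = 0.920), and *Grin2d* had 37 reads in all.

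Among scaffold and trafficking genes, 3 were higher and 5 lower. *Epb41l1*, encoding the 4.1N protein that anchors GluA1, was the most abundant with 4.14 ± 0.235 FPKM in mutant and 4.93 ± 0.149 in control lenses (log2 difference -0.25, limma adjusted p = 0.809). *Adarb1*, encoding the enzyme that edits the pore site of *Gria2*, *Grik1* and *Grik2* transcripts, was covered by 252 and 267 reads in mutant lenses and by 322 and 344 in control lenses (log2 difference -0.32, standard error 0.15, limma adjusted p = 0.809). *Dlg1* and *Dlg3*, which encode membrane scaffolds, had log2 differences of 0.082 and -0.073.

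The 5 tested genes of glutamate transport and metabolism all lay lower in mutant lenses, by log2 differences from -0.59 to -0.063, without passing the test. *Slc1a5*, a glutamine transporter gene, had 58 and 58 mutant against 85 and 100 control reads (log2 difference -0.59, standard error 0.19, unadjusted p = 0.0250, limma adjusted p = 0.749). *Slc1a4*, encoding a neutral amino acid transporter of the same family, had 7.07 ± 0.197 against 8.12 ± 0.720 FPKM (limma adjusted p = 0.811). *Glud1*, the glutamate dehydrogenase gene, and *Glul*, the glutamine synthetase gene, had 5.75 and 2.60 FPKM on average and overlapping groups.

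**Figure D4:**
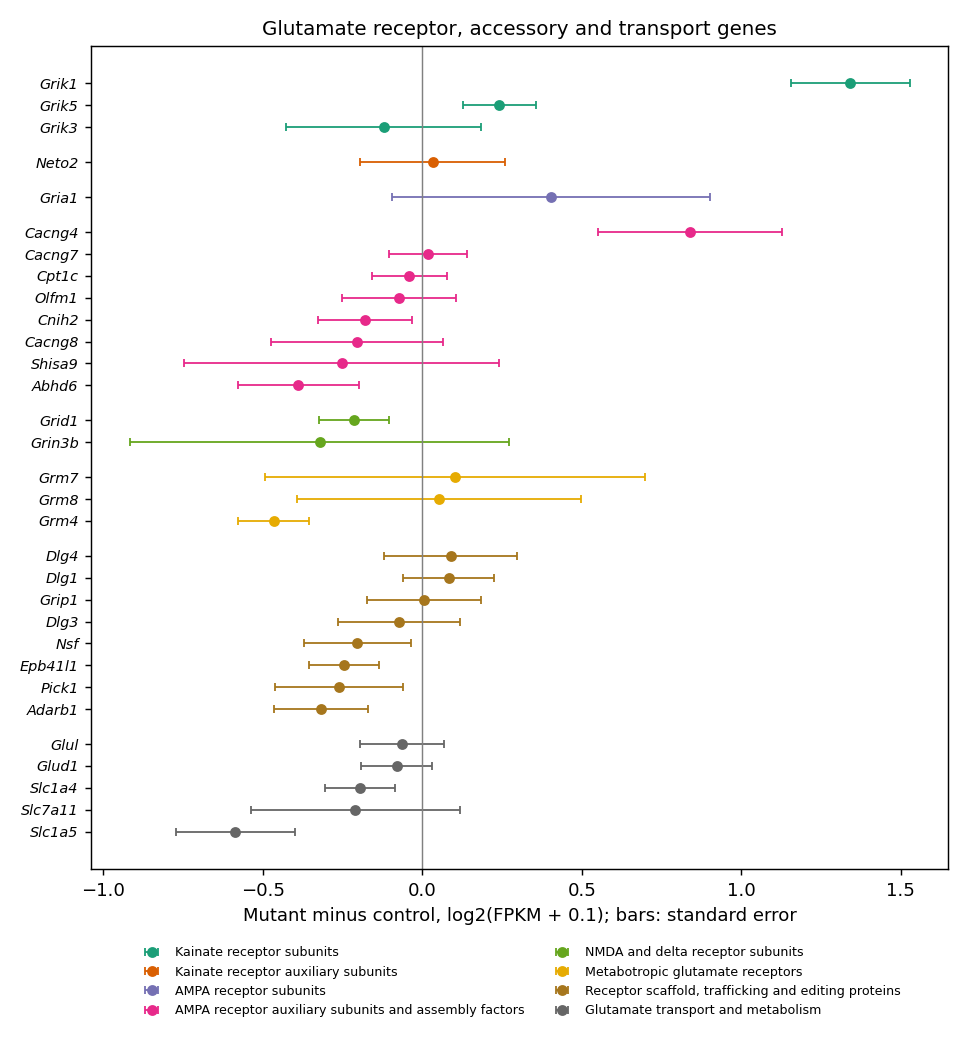
Difference of mutant minus control on log2(FPKM + 0.1) for the tested genes, coloured by list, with bars for the standard error of limma's fit. Grik1 stands at 1.34, Cacng4 at 0.84, Grm4 at -0.47 and Slc1a5 at -0.59.

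Markers of cells other than lens cells were counted beside these results, and in whole lenses fewer cells of a type and less RNA per cell cannot be told apart. The counts of markers above or below in both libraries stand beside 18.2% of all genes tested above and 18.3% below. Those shares cover only genes with a mean of at least 0.1 FPKM, whereas the marker counts include scarcer genes. Among the macrophage markers counted as above, *Adgre1* had 2 reads over all libraries and *Csf1r* lay below 0.1 FPKM in every library. The 9 pan-neuronal markers summed to 2.52 to 2.60 FPKM in mutant and 2.31 to 2.46 FPKM in control lenses, with *Nefl* and *Stmn2* at 1 read each, and both mutant libraries were above both control libraries in 1 marker and below in 1. The 6 macrophage and leukocyte markers summed to 1.44 to 1.53 FPKM in mutant and 0.431 to 0.686 FPKM in control lenses and were above in 4 markers, on at most 46 reads over all libraries for any of them. The 6 endothelial markers summed to 2.34 to 3.11 against 3.56 to 3.84 FPKM, with 1 marker below, and the 5 pericyte markers to 3.99 to 4.78 against 5.80 to 6.02 FPKM, with 2 below and 1 above. The sums of the 8 photoreceptor markers ranged from 0.343 to 2.90 FPKM in mutant and 0.467 to 1.14 in control lenses. *Slc17a6*, which encodes the glutamate transporter of ganglion cell vesicles, and *Lhx1*, a horizontal cell gene, were listed at 0 in every library, and the 8 amacrine, horizontal and ganglion cell markers that include them summed to 0.932 to 1.06 FPKM in mutant and 0.781 to 0.885 FPKM in control lenses, with 2 markers above and 1 below. For the other lists, the 6 retinal bipolar markers summed to 5.45 to 5.75 FPKM in mutant and 5.57 to 6.25 in control lenses, the 5 Mueller glia and astrocyte markers to 3.72 to 4.81 against 3.80 to 4.84, and the 6 ciliary and iris pigment markers to 0.634 to 0.709 against 0.845 to 1.34. The 6 lens epithelium markers summed to 132 to 159 against 150 to 152 FPKM and the 11 lens fibre markers to 143700 to 167459 against 142152 to 164103 FPKM. The part of these cells in the level or the difference of *Grik1* was not tested.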

How the data were processed

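The authors deposited FPKM of 56748 genes in 4 libraries, with gene lengths and positions. Per the methods of the study, reads were aligned with HISAT2 and counted with featureCounts, and the submitters' processing notes name mm39. Sequences come from GENCODE M21 (GRCm38), and no position was carried between builds.

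Libraries were scaled by the median ratio, which was already the same in every library and so left the deposited FPKM unchanged. Genes with a mean of at least 0.1 FPKM (15997) entered a two-sided limma fit (lmFit, then eBayes with trend) of log2(FPKM + 0.1), with Benjamini-Hochberg adjustment over all genes. The count test of the study (DESeq2) was not used because the values are FPKM. Voom on the recovered reads, other pseudocounts, filters and scalings, a replicate block and each library left out in turn were alternatives. The fits were tested on simulated data, with planted changes larger than that of any tested subunit and only in well-covered genes. That run therefore does not cover small changes or scarce genes such as *Gria1*.

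The subunits, lists and rules were chosen with earlier results of these data known. Named were all subunits, the 3 most abundant genes and the 2 with the smallest p of each list, neighbours and overlapping genes (those without reads by number only), the genes nearest to *Grik1*, and markers. The 11 marker lists that hold 76 genes were summed per library. Genes such as *Cacng2*, *Cacng3*, *Cacng5*, *Shisa6*, *Neto1*, *Xist* and *Pdgfrb* were named after their values were seen. One listed gene is not reported here. Intervals and limits of 3 reads cover counting error only. Software was R 4.3.3, limma 3.58.1, Python 3.11.15, numpy 2.4.6, pandas 2.3.3, scipy 1.17.1 and matplotlib 3.10.9.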

Additional observations from a re-analysis of the deposited data

How the results depend on the processing

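The log2 difference of *Grik1* was 1.34 and moved by more than its spread between replicates with a pseudocount of 0.02 (1.51), with a pseudocount of 1 (0.62) and under voom (1.54). Leaving out each library in turn gave 1.31 to 1.37, and no alternative turned its sign. As the families were chosen from this difference in the same libraries, the kept sign is a description and not a test. The difference of *Grik3* changed sign without mutant replicate 1 (0.11) and without control replicate 2 (0.014), with a range of -0.35 to 0.11 over the fits that left out a library. *Grik5* and *Gria1* kept their sign and stayed uncalled in every alternative that gave a value. None of these 3 subunits and none of the other receptor and accessory genes that were tested was called in any alternative that kept every library. Of those 59 other genes, 27 reached the level required for the main test. The rest could be called at most in the fit without that filter. The number of genes called over the whole table, 6 in the main test, was 3 with a pseudocount of 0.02, 2 with a pseudocount of 1, 1 without a filter, 2 at a mean of at least 1 FPKM, 14 under voom and 2 without a trend. It was 1 with a covariate standing in for the sex composition of the pools, which was added after the data were seen. That covariate grouped mutant replicate 1 with control replicate 2, the libraries with lower *Xist*, and is not a measured composition.

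With the replicate number as a block, 3 genes were called. Same-numbered libraries did not deviate together from their group means (r = -0.0051 across 15997 genes), so the numbers are not taken as pairs. With a library left out, limma called 0 genes in each of the 4 fits, with 787 to 1465 genes at an unadjusted p under 0.05, and the lone library was assumed to vary like those of the other group. *Grik1* has no value at a mean of at least 1 FPKM. Depth limits *Grik2*, *Grik4*, *Gria2*, *Gria3* and *Gria4*, which rest on 2 to 25 reads in all.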
